A study of Mus musculus with 6 samples.

Results

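The genes described here make up the machinery that carries a hormone signal from a G protein-coupled receptor to cyclic AMP (cAMP) and on to gene transcription. They were chosen by symbol: numbered adrenergic receptors (Adra, Adrb), subunits of heterotrimeric G proteins (Gna, Gnb, Gng), regulators of G protein signalling (Rgs), adenylyl cyclases (Adcy), phosphodiesterases (Pde), subunits of protein kinase A (Prkac, Prkar), A-kinase anchoring proteins (Akap), and the transcription factors Crem, Creb1, Crebbp and Atf1. The platform annotation names 99 probes of 86 such genes, out of 19200 probes and 13409 named genes. Of these, 91 probes and 78 genes had enough values to be tested. Gnb1l, which starts like a G beta subunit but is not one, was left out, and Pde6d, a prenyl-binding protein named as a phosphodiesterase subunit, was kept.

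The samples were epididymal fat pads of C57BL/6J males aged 12 weeks, given either CL-316,243, a selective agonist of the beta3-adrenergic receptor, at 1 mg per kg body weight or saline, and killed 3 hr later. RNA of 6 mice was pooled for each treatment, and the CL-316,243 pool was hybridised together with the saline pool on 6 spotted arrays. It stood in channel 1 on arrays 1, 2 and 3 and in channel 2 on arrays 4, 5 and 6. No line, transgene or deletion was used, so the animals of both pools share strain, sex, age and depot. There was 1 pool per treatment, so the p-values below measure spread between repeat hybridisations of the pair of pools. The spread between mice is unknown, and the number of arrays limits the precision.

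In fat cells noradrenaline or a synthetic agonist binds beta-adrenergic receptors, which activate the stimulatory G protein Gs. Gs switches on adenylyl cyclase, cAMP releases the catalytic subunits of protein kinase A (PKA) from its regulatory subunits, and the kinase phosphorylates hormone-sensitive lipase and perilipin to start lipolysis. Phosphodiesterases break cAMP down, RGS proteins speed the shut-off of G alpha subunits, anchoring proteins hold PKA at particular places in the cell, and transcription factors of the CREB family carry the signal to genes with cAMP response elements.

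Every value below is a log ratio of the pools, read as log2, and is the mean of a gene's probes. The sources used here do not say which pool forms the numerator. The titles name the CL-316,243 treatment, which makes that pool the likely numerator but does not settle it. "Higher" and "lower" therefore refer to the numerator pool, and all directions turn round if that was the saline pool. If the values are natural logs, every size is larger by a factor of 1.44. The deposited signs were used on every array, in both dye orientations.

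Columns of the deposited table do not correspond row by row, because each lost a different number of spots and closed up. Each column was therefore placed on probe numbers, which kept 63.9% of probes on array 2 and 92.2% to 99.8% on the other arrays. Placed arrays correlated at a mean Spearman coefficient of 0.282 within an orientation (6 pairs) and 0.108 across orientations (9 pairs), over probes that are not independent. As deposited, row by row, these means were 0.004 and -0.002. The placement uses likeness between arrays and so raises it. The p-values, calls and same-sign counts below rest on the placed values and may be affected in the same way. A gene was called where the adjusted p of limma's moderated test (Benjamini-Hochberg over 12856 genes) was below 0.05. By that rule 387 genes were called, 3.01% of those tested, of which 239 (1.86%) were higher and 148 (1.15%) lower. Leaving out array 1, 4 or 5 brought the count over all genes to 159, 211 or 131.

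Of the 78 tested genes of the machinery, 2 were called, both higher and both anchoring proteins: Akap2 and Akap12. This is 2.56%, near the 3.01% over all genes, and 0 were called lower (limma). At an unadjusted p below 0.05 the members counted 12 higher (15.4%, beside 8.84% of all genes) and 6 lower (7.69%, beside 9.55%), 23.1% in all beside a background of 18.4%. The median ratio of the 78 genes was 0.007, with 41 positive and 37 negative values between -0.51 (Rgs4) and 1.67 (Akap2), and the median over all genes was -0.011. The median size without regard to sign was 0.155 for the machinery and 0.141 for all genes. By role the median size ran from 0.015 for the CREB family (3 genes, Crem at 1.05 among them) to 0.511 for the 2 PKA catalytic subunits. It was 0.318 for the 6 adenylyl cyclases and 0.113 for the 11 anchoring proteins. The anchoring proteins Akap2 and Akap12 stood at ranks 33 and 39 of 12856 by size.

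**Figure D1:**
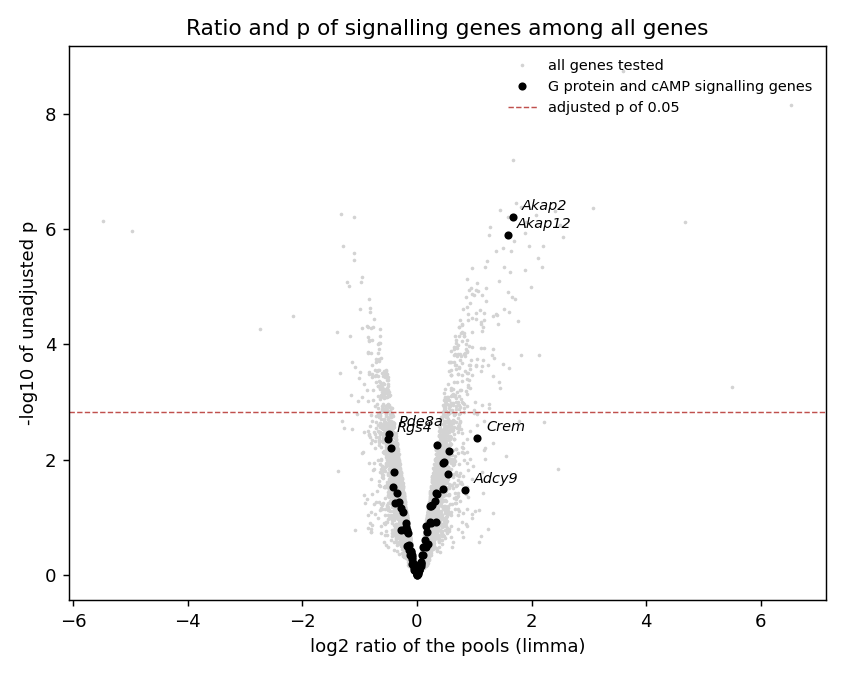
Log2 ratio of the pools (x axis) against the size of the unadjusted p as -log10 (y axis) for the 78 tested genes of the machinery, over all genes tested in grey; the dashed line marks an adjusted p of 0.05. Akap2 and Akap12 lie apart at 1.67 and 1.59, Crem follows at 1.05 without a call, and the other members lie between -0.51 and 0.84.

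Anchoring proteins tether PKA through its regulatory subunits. Akap2, which current RefSeq records list as a synonym of Pakap, a locus joined with the neighbouring Palm2, had ratios of 2.16, 1.80 and 1.06 on arrays 1, 2 and 3 and of 1.85, 1.49 and 1.65 on arrays 4, 5 and 6. All 6 values were positive, and the ranges of the orientations overlapped. The fitted ratio was 1.67 ± 0.14 (SE, n = 6 arrays), a 3.18-fold difference, with a 95% interval of 1.34 to 1.99 and an adjusted p of 0.00061 in limma. Each array left out in turn gave 1.55 to 1.82, with adjusted p-values from 0.000136 to 0.00525. The annotation names only 1 probe of this gene, so no second probe checks it.

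Akap12 encodes gravin, a scaffold that binds PKA and protein kinase C. Its ratios were 1.59, 1.75 and 0.61 on arrays 1, 2 and 3 and 1.81, 1.95 and 1.83 on arrays 4, 5 and 6. All were positive, array 3 was lowest, and every array with CL-316,243 in channel 2 lay above every array with it in channel 1. Over both orientations it was 1.59 ± 0.15 (SE, n = 6 arrays), 3.01-fold, with a 95% interval of 1.25 to 1.92 and a limma adjusted p of 0.000745. The difference between orientations, channel 1 minus channel 2, was -0.54 ± 0.30 (SE, limma adjusted p = 0.537). Over the arrays with CL-316,243 in channel 1 alone the ratio was 1.32 and the call was lost (limma adjusted p = 0.0659), while Akap2 stayed called at 1.67 (adjusted p = 0.0327).

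The other 9 tested anchoring proteins lay between -0.13 (Akap10) and 0.25 (Akap7), and none was called. Akap1, which anchors PKA at the outer mitochondrial membrane, had ratios of 0.25 and 0.14 on arrays 1 and 3 and of 0.27, -0.39 and 0.47 on arrays 4, 5 and 6. Its fitted ratio was 0.15 ± 0.15 (SE, n = 5 arrays, limma adjusted p = 0.64). The median over the 11 anchoring proteins was 0.041, so Akap2 and Akap12 were apart from the rest of their own family as well.

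Markers of smooth muscle had positive ratios too, 5 of 5 between 0.06 (Myh11) and 1.26 (Cnn1). Of these, 3 were called higher by limma: Acta2 (0.70 ± 0.11 SE, adjusted p = 0.0114), Cnn1 (1.26 ± 0.27, adjusted p = 0.0454) and Des (0.92 ± 0.14, adjusted p = 0.0166). Of 5 markers listed for epididymis and seminal vesicle, limma called 4 lower: Svs2, Svs4, Svs5 and Pate4, with the lowest at -5.47 (Svs5). The other, Defb1, was at -0.00 and was not called. None of the tested markers of adipocytes (7, between -0.47 and 1.17), macrophages (4), endothelium (5), lymphocytes (5), skeletal muscle (3) or mesothelium (2) was called. No levels were used here, so it cannot be said whether a marker is near 0 in either pool. The part of other cell types in the ratios of Akap2 and Akap12 was not tested. In whole fat, fewer cells of a type and less RNA per cell cannot be told apart.

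**Figure D2:**
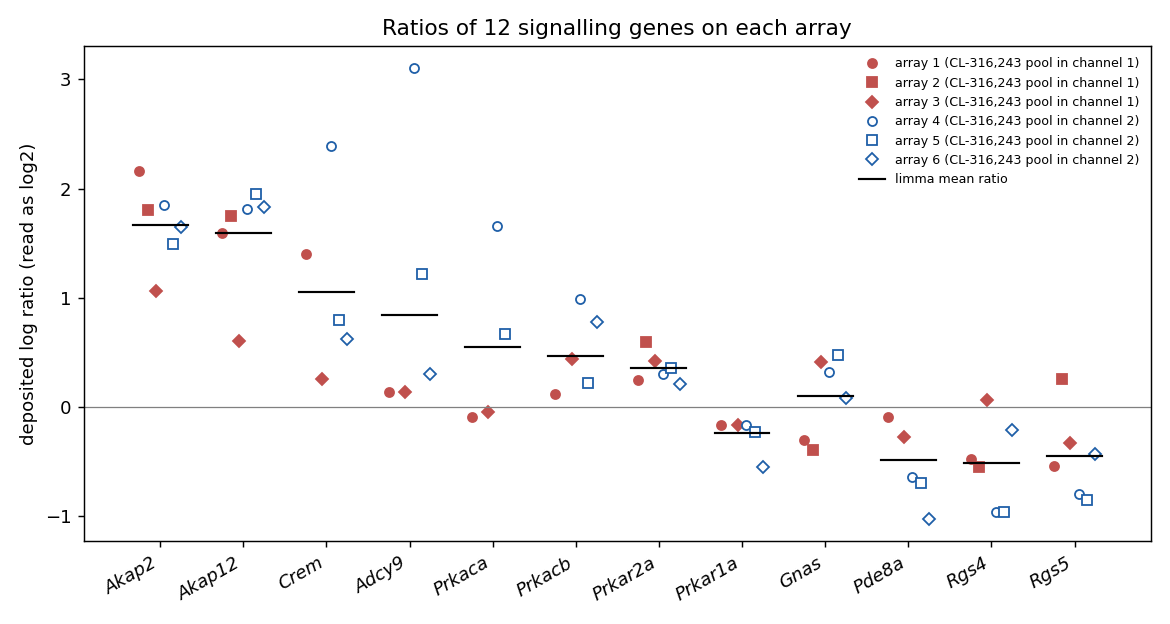
Log2 ratio of the pools on each array (y axis) for 12 members of the machinery (x axis), with arrays that carry CL-316,243 in channel 1 left of those that carry it in channel 2; each point is an array and the horizontal line is the fitted ratio. Akap2 and Akap12 are positive on all 6 arrays, whereas the highest values of Adcy9 (3.10), Crem (2.39) and Prkaca (1.66) come from array 4.

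Among the nuclear members, Crem was higher on every array that gave a value but was not called. Crem encodes activators and repressors of cAMP response elements, among them the early repressor ICER, which cAMP itself induces from an internal promoter. The annotation does not say which transcripts the probe reads. Crem had ratios of 1.40 and 0.26 on arrays 1 and 3 and of 2.39, 0.80 and 0.62 on arrays 4, 5 and 6. On array 2 its position had a posterior of 0.7957, below the 0.95 required, and no value was kept. The fitted ratio was 1.05 ± 0.27 (SE, n = 5 arrays), 2.07-fold, with a 95% interval of 0.43 to 1.67 and a limma adjusted p of 0.083. It was 0.76 without array 1 and 0.77 without array 4.

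Creb1 and Atf1 encode factors that are mainly activated by phosphorylation, a change that an array of RNA does not read. Creb1 had ratios of -0.20, -0.56 and 0.19 on arrays 1, 2 and 3 and of -0.12, 0.23 and 0.48 on arrays 4, 5 and 6. Its fitted ratio was 0.00 ± 0.13 (SE, n = 6, 95% interval -0.29 to 0.29). That of Atf1 was -0.02 ± 0.10 (SE, n = 6, interval -0.24 to 0.21), and its arrays ran from -0.22 to 0.30. Of all tested genes, 0.996% had a ratio of at least 2-fold in size, and 3 of the 78 members did (3.85%): Akap2, Akap12 and Crem.

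Genes known as targets of cAMP and CREB were counted beside the machinery that drives them. Of 33 such genes, 26 had a named probe and 24 were tested. Limma called 7 higher and 0 lower, where 1.86% of all genes were called higher and 1.15% lower. The median was 0.446 with a range of -0.41 (Pck1) to 3.08 (Noct), beside a median of -0.011 over all genes. The list was drawn up with earlier results of these arrays known, so its direction is no independent evidence. Crem is counted in this list as well. Noct, the rhythmically expressed gene of nocturnin, was highest at 3.08 ± 0.26 (SE, n = 6, limma adjusted p = 0.00061). Il6 followed at 1.76 ± 0.23, Dio2, which activates thyroid hormone, at 1.18 ± 0.19, and Junb at 1.13 ± 0.22. The other called targets were Hspa8 (0.82 ± 0.12), the coactivator Ppargc1a (0.77 ± 0.16) and Star (0.73 ± 0.16). Sik1, a kinase that restrains CREB coactivators, reached 0.67 with an adjusted p of 0.0519.

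Other genes of the pathway, which the choice by symbol does not take in, were counted in the same way. Of 60 listed, 44 had a named probe and 42 were tested, with 24 positive and 18 negative ratios and a median of 0.070. Limma called 1 of the 42 higher and 0 lower, near the 3.01% called over all genes. The called gene, Gnat2, encodes cone transducin, a G alpha subunit of the retina, and had ratios of 0.87, 0.79 and 0.74 on arrays 1, 2 and 3 and of 0.76, 1.07 and 0.14 on arrays 4, 5 and 6 (fitted 0.73 ± 0.13 SE, adjusted p = 0.0181). The lowest ratio of this list was -0.43 (Grk6, a receptor kinase).

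The first step of the pathway was hardly covered. Of 26 genes fixed by name, 11 have no named probe here, among them Adrb1, Adrb3, Adra1a, Adra2a, Adcy5, Prkar2b, Pde3b, Pde4b, Pde4d and Crebbp. They include the receptor that CL-316,243 binds and the phosphodiesterase through which insulin restrains lipolysis. The adrenergic receptors measured were Adra1b and Adra2c. Adra1b, which couples to Gq, had a ratio of -0.11 ± 0.12 (SE, n = 6, limma adjusted p = 0.685). That of Adra2c, which couples to Gi, was -0.08 ± 0.12 (n = 6, adjusted p = 0.786). Each had arrays on both sides of 0.

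The 10 tested G alpha subunits had a median of 0.003 and none was called. Gnas, the stimulatory subunit that couples beta receptors to adenylyl cyclase, had ratios of -0.30, -0.39 and 0.41 on arrays 1, 2 and 3 and of 0.32, 0.48 and 0.08 on arrays 4, 5 and 6. The fitted value of 0.10 ± 0.13 (SE, n = 6, adjusted p = 0.734) had a 95% interval of -0.19 to 0.39, and its probes gave 0.26 and -0.06. Gnas is a complex locus with several transcripts, and the sources used here do not say which of them each probe reads.

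Of the inhibitory class, Gnai2 was at 0.02 ± 0.15 (n = 5) and Gnao1 at -0.05 ± 0.11 (n = 6). Gna12 and Gna13, which form a class of their own, were at 0.01 ± 0.16 (n = 6) and 0.19 ± 0.17 (n = 5). In the Gq class Gna15, best known from blood cells, had the highest ratio of the G alpha subunits, with -0.30, 0.99 and 0.24 on arrays 1, 2 and 3 and 1.01, 0.69 and 0.05 on arrays 4, 5 and 6. It was not called (0.45 ± 0.18 SE, adjusted p = 0.222). Gna14 was lowest at -0.28 ± 0.14 (n = 6, adjusted p = 0.315).

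Beta and gamma subunits form the dimer that is freed when a G protein is activated. None of the 9 tested was called, and they lay between -0.28 and 0.46. Gng12 had ratios of 0.67 and 0.55 on arrays 1 and 3 and of 0.69, 0.37 and -0.13 on arrays 4, 5 and 6, with array 6 alone below 0 (0.46 ± 0.14 SE, adjusted p = 0.135). Gng10 was at the other end with -0.28 ± 0.19 (n = 4, adjusted p = 0.475). Gnb1 was at -0.16 ± 0.11 (n = 6) and Gnb2 at 0.24 ± 0.11 (n = 6). Gnb2 had 0.48, 0.36 and 0.94 on arrays 1, 2 and 3, against 0.11, -0.20 and -0.24 on arrays 4, 5 and 6, so its orientations did not overlap. The difference of 0.70 ± 0.23 between them did not pass (limma adjusted p = 0.401).

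RGS proteins were the largest family, with 18 genes tested. Of these, 11 had negative and 7 positive ratios, the median was -0.134, and none was called. The extremes were Rgs4 at -0.51 and Rgs11 at 0.34. At an unadjusted p below 0.05, 5 were lower (Rgs2, Rgs4, Rgs5, Rgs10 and Rgs19) and 1 was higher (Rgs11), by a rule under which 9.55% of all genes were lower and 8.84% higher.

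Rgs4, which acts on Gi and Gq, had ratios of -0.47, -0.55 and 0.07 on arrays 1, 2 and 3 and of -0.96, -0.96 and -0.21 on arrays 4, 5 and 6. It was negative on 5 of 6 arrays, with a fitted ratio of -0.51 ± 0.14 (SE) and a limma adjusted p of 0.0847. Each array left out in turn gave -0.64 to -0.45, with limma adjusted p-values from 0.0485 to 0.265. Only the fit without array 6, at -0.64, passed. Rgs5, an RGS protein of pericytes and vascular smooth muscle, had -0.54, 0.26 and -0.33 on arrays 1, 2 and 3 and -0.79, -0.85 and -0.43 on arrays 4, 5 and 6. Array 2 alone was positive. The fitted ratio was -0.45 ± 0.13 (SE, n = 6, adjusted p = 0.102). Each array left out in turn gave -0.56 to -0.36, with limma adjusted p-values from 0.0455 to 0.29. Only the fit without array 2, the positive array, passed, at -0.56.

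The probes of Rgs5 differed in size. Probe 17738 had -0.72 ± 0.15 (SE, n = 6 arrays) and was called in the fit over probes (limma adjusted p = 0.0306), and probe 1471 had -0.26 ± 0.13 (n = 5) and was not (adjusted p = 0.361). Over probes, 3 of 91 members were called (3.30%), namely Rgs5 probe 17738 and the single probes of Akap2 and Akap12, beside 3.83% of all tested probes. With 1 probe per gene, which kept probe 17738, Rgs5 was called at -0.72 (adjusted p = 0.0353). Smooth muscle markers were positive in 5 of 5, and endothelial markers were negative in 4 of 5 (median -0.263, from -0.51 for Tek and -0.35 for Tie1 to 0.12 for Kdr, none called). Their part in the ratio of Rgs5 was not tested. Rgs2, which blunts Gq signals, had 0.09 and -0.69 on arrays 1 and 3 and -0.34, -0.60 and -0.29 on arrays 4, 5 and 6 (fitted -0.35 ± 0.14 SE, adjusted p = 0.241), and was -0.55 without array 1 and -0.16 without array 3. Rgs10 (-0.41 ± 0.16) and Rgs19 (-0.39 ± 0.14) were negative on every array with a value.

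**Figure D3:**
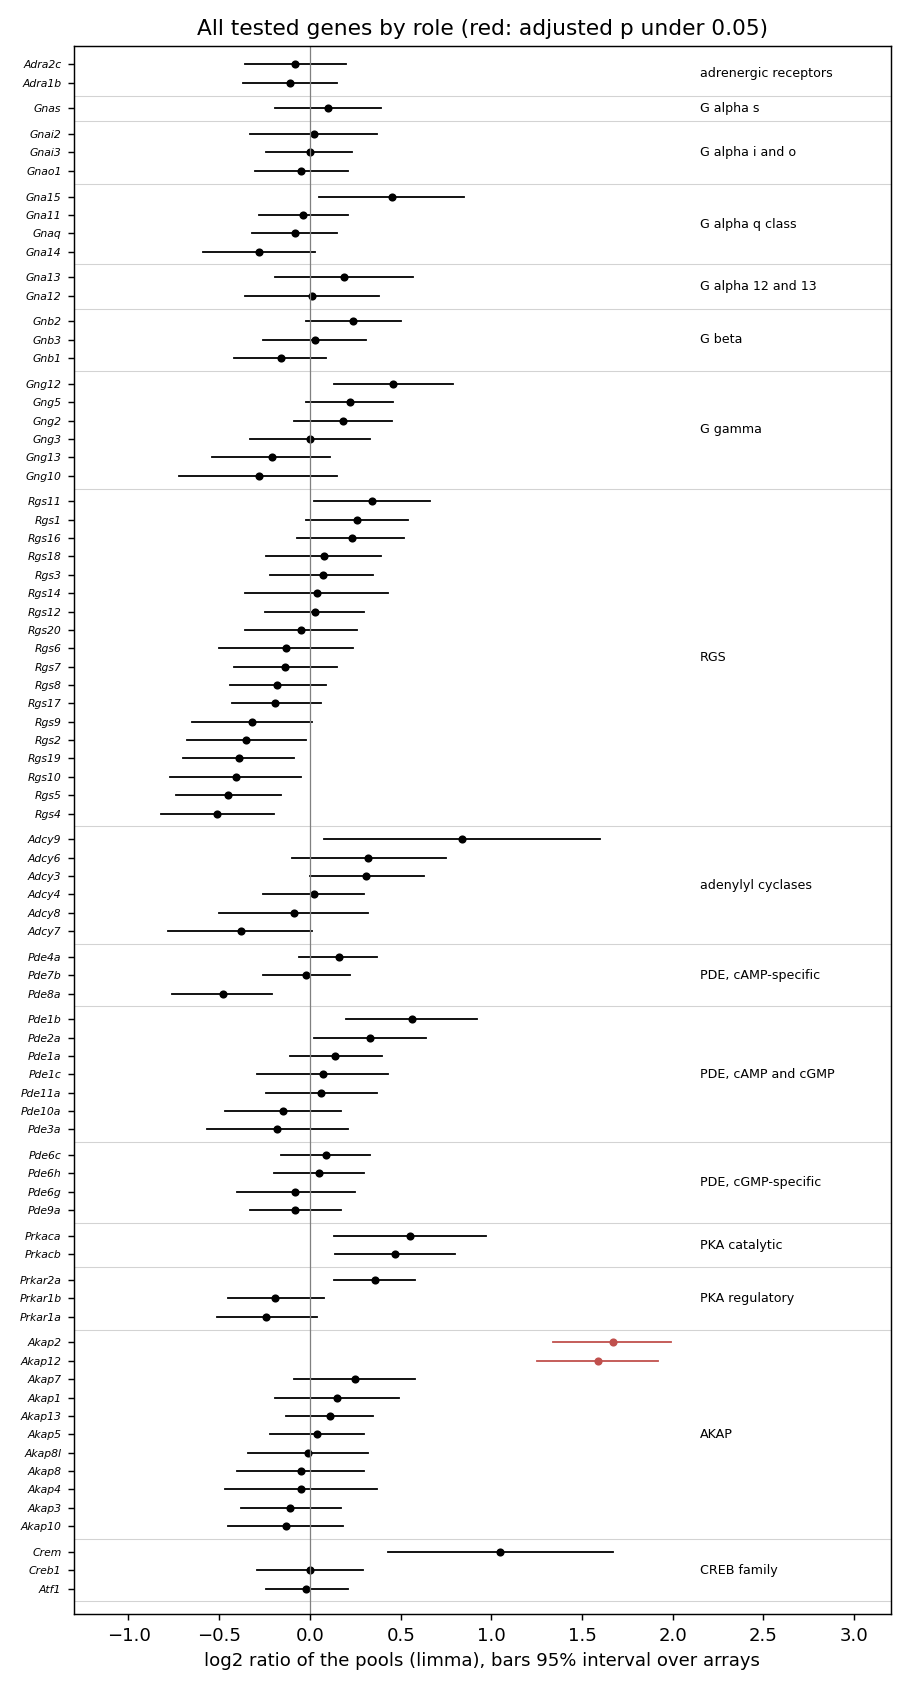
Fitted log2 ratio of the pools (x axis) for each of the 78 tested genes (y axis), grouped by role in the pathway; bars are 95% intervals over arrays, and red marks the called genes. Only the anchoring proteins have called genes, at 1.67 and 1.59, and the 18 RGS genes lie between -0.51 and 0.34.

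Adenylyl cyclases, the enzymes that make cAMP, were tested in 6 genes, with 4 positive and 2 negative ratios, a median of 0.165 and no call. Adcy9 had the highest value, and it rested on 1 array. Its ratios were 0.14 on array 1 and 0.14 on array 3, against 3.10, 1.22 and 0.30 on arrays 4, 5 and 6. The fit gave 0.84 ± 0.33 (SE, n = 5 arrays, limma adjusted p = 0.228) and 0.45 without array 4. In a placement in which the values at members' own probes played no part, the value of array 4 could no longer be placed and the ratio was also 0.45. The place of the 3.10 on this probe thus rests partly on that value itself.

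Adcy6 likewise stood highest on array 4, with -0.43 and 0.07 on arrays 1 and 3, against 1.44, 0.88 and 0.16 on arrays 4, 5 and 6. Its fitted ratio was 0.32 ± 0.19 (SE, adjusted p = 0.407). Adcy3, the cyclase of the olfactory signal that is also found in fat, was positive on all 5 arrays with a value, with 0.73 and 0.06 on arrays 1 and 3 and 0.44, 0.09 and 0.15 on arrays 4, 5 and 6 (0.31 ± 0.14 SE, adjusted p = 0.279). It was 0.15 without array 1 and 0.48 without array 3. Adcy7 was lowest at -0.38 ± 0.18 (n = 6, adjusted p = 0.288), with array 4 alone clearly above 0 at 0.50. With a posterior of at least 0.99 required of each position, Adcy7 was -0.70 and was called (n = 4 arrays, limma adjusted p = 0.0365). That setting dropped array 3 (0.00, posterior 0.9812) and array 4 (0.50, posterior 0.9830), the only arrays that were not negative.

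Of the genes of phosphodiesterases that take cAMP, cGMP or both, subunits included, 14 were tested, with 8 positive and 6 negative ratios, and none was called. Of the cAMP-specific enzymes, Pde8a, one of high affinity, was negative on all 5 arrays with a value, at -0.09 and -0.27 on arrays 1 and 3 and at -0.64, -0.69 and -1.02 on arrays 4, 5 and 6. The orientations did not overlap. The difference of 0.60 ± 0.24 between them did not pass (limma adjusted p = 0.455). The fitted ratio was -0.48 ± 0.12 (SE, limma adjusted p = 0.0755). Over the arrays with CL-316,243 in channel 2 alone it was -0.78 with an adjusted p of 0.0493. Over those with it in channel 1 alone it was -0.18 (n = 2 arrays, adjusted p = 0.75). Pde4a was at 0.16 ± 0.10 (n = 6, adjusted p = 0.44).

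Of the enzymes that take both nucleotides, Pde1b, which calmodulin activates, was positive on the 4 arrays with a value: 0.41 on array 1, 0.32 on array 3, 0.43 on array 5 and 1.08 on array 6 (0.56 ± 0.15 SE, adjusted p = 0.106). Pde2a, which cGMP activates, had 0.13, -0.02 and 0.89 on arrays 1, 2 and 3 and 0.51, 0.08 and 0.38 on arrays 4, 5 and 6 (0.33 ± 0.14 SE, adjusted p = 0.24). The genes grouped as cGMP-specific, subunits of PDE6 among them, were nearest to 0, with all 4 tested between -0.08 and 0.09. Their largest ratios in size were those of Pde6c, of cone cells, at 0.09 ± 0.11 (n = 6) and Pde9a at -0.08 ± 0.11 (n = 6).

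The 5 tested PKA subunits had a median of 0.355, 3 positive and 2 negative, with no call. Both catalytic subunits had positive ratios. Prkacb had 0.12 and 0.44 on arrays 1 and 3 and 0.99, 0.22 and 0.78 on arrays 4, 5 and 6, all above 0 (0.47 ± 0.15 SE, limma adjusted p = 0.132). Prkaca had -0.09 on array 1 and -0.04 on array 3, against 1.66 on array 4 and 0.67 on array 5. Its orientations thus lay on opposite sides of 0, with means of -0.06 and 1.16, and the fitted ratio of 0.55 ± 0.18 (SE, n = 4 arrays, adjusted p = 0.165) describes neither. It was 0.30 without array 4.

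The regulatory subunit Prkar2a had the narrowest spread of the members named here whose ratio was above 0.3 in size. It had 0.25, 0.60 and 0.42 on arrays 1, 2 and 3 and 0.30, 0.36 and 0.21 on arrays 4, 5 and 6. All 6 were positive, and its 3 probes gave 0.29, 0.33 and 0.38. Together they gave 0.36 ± 0.10 (SE, 95% interval 0.13 to 0.58, limma adjusted p = 0.0955). Prkar1a, the other widely expressed regulatory subunit, was negative on all 5 arrays with a value, at -0.16 and -0.16 on arrays 1 and 3 and at -0.16, -0.23 and -0.55 on arrays 4, 5 and 6 (-0.24 ± 0.12 SE, adjusted p = 0.342). Prkar1b was at -0.19 ± 0.12 (n = 6, adjusted p = 0.446).

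Promoters of PKA subunits are shown because cAMP acts on genes through the response element TGACGTCA and its half-site TGACG. Prkar1b, with the half-site in 1 of its 5 windows, is left out. RefSeq promoter windows (GRCm38.p6, 250 bases before a transcript start, both strands searched) were found for 66 of the 86 genes, 112 windows in all. The full element is in 1 of those 112 windows (0.893%), that of Prkar1a, and in 1.55% of all 32851 windows. The half-site, which the full element contains, is in 22 of the 112 (19.6%) and in 17.8% of all windows. Akap2, Akap12 and Crem are not in the table of windows. A match is a run of letters and not a measured site. For Prkar1a 30 bases around the full element are given (chr11:109650889-109650918, plus strand), in a window of 1 of its 6 listed starts, with the first base of the element 49 bases before the start. The other windows hold 250 bases each, at chr9:108691893-108692142 (plus strand) for Prkar2a, chr8:83972728-83972977 (plus strand) for Prkaca and chr3:146812947-146813196 (minus strand) for Prkacb. All are written 5′ to 3′ along the gene, with the element or its half-site on either strand in capitals.
Prkar1a: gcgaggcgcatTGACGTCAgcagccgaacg
Prkar2a: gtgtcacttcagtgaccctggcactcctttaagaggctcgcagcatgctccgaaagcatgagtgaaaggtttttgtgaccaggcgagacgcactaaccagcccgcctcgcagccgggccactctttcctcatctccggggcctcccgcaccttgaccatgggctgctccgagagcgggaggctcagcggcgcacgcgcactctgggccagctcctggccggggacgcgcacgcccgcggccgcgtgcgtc
Prkaca: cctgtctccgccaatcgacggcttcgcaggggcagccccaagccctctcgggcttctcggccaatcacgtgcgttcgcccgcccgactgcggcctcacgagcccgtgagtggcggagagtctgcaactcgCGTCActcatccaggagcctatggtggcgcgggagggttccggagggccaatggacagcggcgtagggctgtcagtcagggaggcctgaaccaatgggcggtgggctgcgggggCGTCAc
Prkacb: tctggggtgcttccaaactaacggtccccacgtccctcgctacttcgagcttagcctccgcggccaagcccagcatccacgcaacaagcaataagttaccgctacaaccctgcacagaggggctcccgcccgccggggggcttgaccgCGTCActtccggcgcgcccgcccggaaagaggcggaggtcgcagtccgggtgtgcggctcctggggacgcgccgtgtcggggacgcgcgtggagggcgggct

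The window shown for Prkaca holds the half-site at 120 and 6 bases before the start and that shown for Prkacb at 102. Prkaca has 2 windows and Prkacb 3, and in each gene the window shown is the only 1 with the half-site. The window of Prkar2a holds none. None of the 4 genes was called, and no factor's binding was measured.

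How far single arrays agreed differed from gene to gene. The sign was the same on every array with a value for 13 of the 78 genes (16.7%), and for 14.0% of all tested genes. Of these 13, 4 were also at least 1.5-fold in size (5.13%, background 3.26%), namely Akap2, Akap12, Crem and Adcy9, all higher (background of higher genes 2.09%). The others were Adcy3, Pde1b, Prkacb, Prkar2a and Rgs11 above 0 and Pde8a, Prkar1a, Rgs10 and Rgs19 below it. For 11 genes with several tested probes, all probes had the same sign in 5 and both signs in 6. Each of those 6 had a probe with a ratio between -0.08 and 0.08, so near 0 a ratio read from 1 probe can miss its gene's sign. The share over all genes with several probes is not given here.

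The dye orientations were set against each other as channel 1 minus channel 2. Limma found no difference among the 78 genes at an adjusted p below 0.05 and 1 among all 12856 (0.00778%). At an unadjusted p below 0.05 there were 9 members (11.5%, background 10.5%). The largest of these differences in size was that of Prkaca, -1.23 ± 0.36 (SE, limma adjusted p = 0.399), followed by Adcy6 at -1.01 ± 0.37 (adjusted p = 0.437). In 3 members, Prkaca, Gng2 and Rgs3, the orientations lay wholly on opposite sides of 0 (3.85%, background 6.99%).

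**Figure D4:**
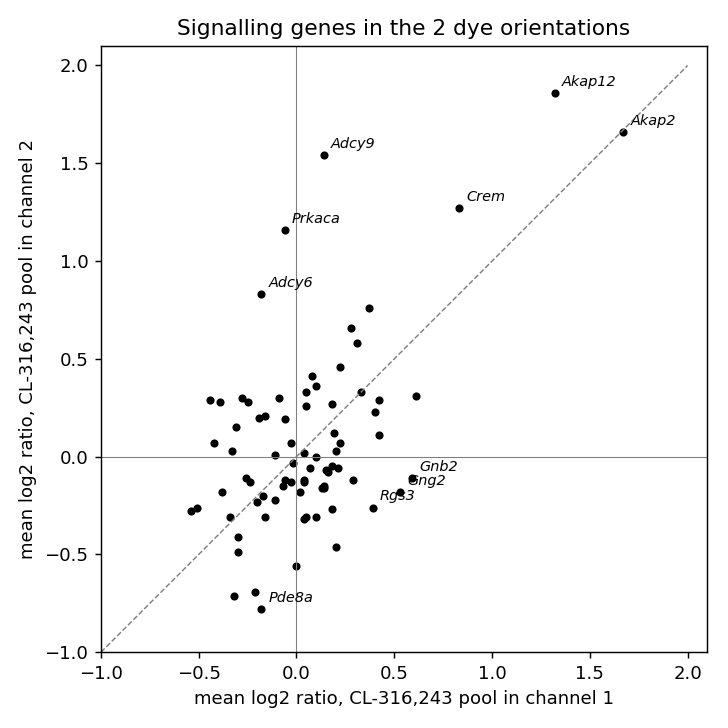
Mean log2 ratio over the arrays with CL-316,243 in channel 1 (x axis) against the mean over those with it in channel 2 (y axis) for the 78 tested genes, with the line of equal values. Akap2 lies on the line at 1.67 and 1.66 and Akap12 above it at 1.32 and 1.86, while Adcy9 (0.14 and 1.54) and Prkaca (-0.06 and 1.16) are high in the second orientation alone.

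The 8 genes left untested had values on fewer than 2 arrays of an orientation. Gnb5 had 0.67 on array 1 and 0.36, 0.28 and 0.47 on arrays 4, 5 and 6, all positive. Pde6a, of rod cells, had 0.60 on array 1, 1.63 on array 5 and -0.21 on array 6. Gnb4, Gng4, Gng11, Pde6b, Pde6d and Pde7a had values between -0.64 and 0.39.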

How the data were processed

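Per the labels' protocols, cDNA of the pools carried fluorescein (Cy3) or biotin (Cy5), was detected by tyramide amplification, and was read with QuantArray 3.0. The authors deposited log ratios, read here as log2, made with a uniform scale factor between dyes and LOWESS, per the labels. The sources used here do not give the dye of each channel, the numerator pool, the log base, the background correction, why spots were dropped, or the hybridisation batches. Slide lots differ for every array and could not enter as a block. No intensities were used.

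A hidden Markov model that lets columns only lose spots assigned the values of a column to probe numbers 1 to 19200 (8 rounds, normal scores clipped at 3, a lost spot followed by another with probability 0.5), and values with a posterior of at least 0.95 were kept. Symbols came from the platform annotation (14711 probes with 1 symbol, 6 with several and not named, 4483 unnamed here). For 14416, Entrez identifiers matched current RefSeq records, and 0 symbols changed. Genes with values on at least 2 arrays of each orientation were fitted with limma 3.58.1 (R 4.3.3, lmFit and eBayes, orientation coded as plus and minus 1), adjusted over all 12856 genes. Promoter windows came from RefSeq. Placement and test were also run on simulated data whose lost spots followed the model's own rule and whose changes were equal on every array. Such data cannot check that rule, and the outcome is not given here.

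The genes and lists were chosen with earlier results of these data known. Named with values are the called genes, the 2 largest ratios in size of each role, and 26 genes fixed by name. Alternatives were each array left out, rows as deposited, other posteriors, 1 probe per gene, other array minimums, centring, scaling, no orientation term, robust eBayes, each orientation alone, natural logs, and, chosen after seeing the data, a placement without the values at members' probes.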

Additional observations from a re-analysis of the deposited data

Results flagged for a closer look

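For 3 genes every array of 1 dye orientation lay on one side of 0 and every array of the other orientation on the other side, which happened for 3.85% of the 78 tested genes and for 6.99% of all genes. Gng2 and Rgs3 are named here after their values were seen. None of the 3 differences passed limma's test over all genes, so a dependence on the dye is not shown for them. A ratio whose sign differs between the orientations gives no direction between the pools.

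Prkaca, a catalytic subunit of PKA, had -0.09 and -0.04 on arrays 1 and 3, against 1.66 and 0.67 on arrays 4 and 5, a difference of -1.23 between orientations (adjusted p = 0.399). Gng2, a G gamma subunit, had 0.31, 0.29 and 0.99 on arrays 1, 2 and 3, against -0.28, -0.20 and -0.06 on arrays 4, 5 and 6, a difference of 0.71 (adjusted p = 0.41). Its probe 12085 gave a ratio of 0.23 and its probe 15347 gave -0.06. Probe 15347 was negative on arrays 1 and 2 (-0.17 and -0.07) and had no value on array 3. The difference in sign of Gng2 between orientations thus rested on probe 12085 alone. Rgs3 had 0.26 and 0.52 on arrays 1 and 3, against -0.50, -0.18 and -0.10 on arrays 4, 5 and 6, a difference of 0.65 (adjusted p = 0.442).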

How the results depend on the processing

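Akap2 and Akap12 kept their direction and call without each array in turn, at posteriors of at least 0.8 or 0.99, with 1 probe per gene, with other array minimums, after centring or scaling, without the orientation term, with robust eBayes and in the placement without members' values. With each array left out, 2 to 3 member genes were called (2.56% to 3.85%), beside 2 (2.56%) in the main fit. Over all genes 131 to 378 were called (1.02% to 2.94%), beside 387 (3.01%). Of the 91 member probes, 2 to 4 were called, beside 3, and the share over all probes in these fits is not given here. With rows read as deposited, limma called 0 members (2 of 86 at an unadjusted p below 0.05) and 0 genes in all (489 of 13409), with Akap2 at 0.03 and Akap12 at -0.05; there a row holds different probes on different arrays. The arrays with CL-316,243 in channel 1 alone gave 1 of 79 members (1.27%) and 62 of 12880 genes (0.481%). Those with it in channel 2 alone gave 3 of 85 members (3.53%) and 211 of 13385 genes (1.58%). Each of these fits had fewer arrays. Read as natural logs, 8 members in place of 4 were at least 1.5-fold with the same sign throughout. Every gene's size grows under that reading, and the share over all genes is not given here, so the rise is no result about the members. The median over members stayed between -0.041 and 0.042. Calls gained under single settings (Adcy7, Pde8a and Rgs4) or under 2 (Rgs5) stand in the report; their cause was not tested. Of the 34 named genes without a call, 23 moved by over 1.5 times and 7 changed sign when 1 array was left out, and neither called gene did. Each ratio already pairs both pools within an array, and array numbers 1 to 6 do not repeat, so no further block was fitted. Signal over background is not known here.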

Other observations

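Values of single arrays stood apart for some members. Among the 78 genes, 9 values lay at least 1 log2 unit from the median of the gene's other arrays. These were 5 of 73 values on array 4, 2 of 78 on array 3, 2 of 78 on array 5 and 0 of 42 on array 2. Over all tested genes 2116 values lay as far from the others, 25.6% of them on array 2, 20.7% on array 4, 19.8% on array 3 and 9.74% on array 5. By array these were 541 of 8085 values on array 2, 438 of 11820 on array 4, 419 of 12760 on array 3 and 206 of 12850 on array 5. The member values of array 4 were Adcy9 (3.10, others at a median of 0.22), Crem (2.39, others 0.71), Prkaca (1.66, others -0.04), Adcy6 (1.44, others 0.12) and Adcy7 (0.50, others -0.62), all above the other arrays. Those of array 3 were Akap12 (0.61, others 1.81) and Gng2 (0.99, others -0.06), and those of array 5 were Adcy9 (1.22, others 0.22) and Gna12 (0.85, others -0.20). The Gng2 value of array 3 came from probe 12085 alone, since probe 15347 had no value there. Probe 12085 had 0.80 and 0.65 on arrays 1 and 2, so by that probe array 3 did not stand apart from them.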
